A study of Caenorhabditis elegans with 12 samples.

Results

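The 10 genes described here make proteins of the oocyte and of the early germ line of Caenorhabditis elegans: glh-1, gld-1, rme-2, puf-5, oma-1, oma-2, mex-5, mex-6, pos-1 and pie-1. They were chosen by name, with earlier results of these data known, and each matched exactly 1 of the 46245 genes in the deposited table. mRNA was sequenced from whole glp-4(bn2) worms grown at 20 °C and taken on day 1 of adulthood. There were 12 libraries in 6 groups, with 2 libraries in each. All groups carried the glp-4 allele. Worms of 3 groups were fed L4440 (the RNAi vector with no insert), a clone against hda-1 or a clone against dve-1. The other 3 groups had the same feeding with atp-2 RNAi added 30 h later, per the labels. The study's methods on mRNA sequencing give a shorter delay, and which held here could not be settled. Each sample pooled many synchronized animals. The RNAi clones target a histone deacetylase of class I (hda-1), a homeodomain factor acting in the unfolded protein response of mitochondria (dve-1) and a subunit of the mitochondrial ATP synthase (atp-2).

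glp-4(bn2) is a temperature-sensitive allele of a valyl-tRNA synthetase gene that limits the growth of the germ line at the restrictive temperature. The labelled 20 °C is below the temperature at which the strain is usually raised to remove the germ line. How many germ cells these worms held is not stated. The sequenced RNA is from the whole body, so fewer cells of a type and less RNA per cell cannot be told apart. Levels are given as FPKM (fragments counted on a transcript, per kilobase of its length and scaled to the depth of the library), with 1 value for each gene and group into which both libraries of the group had been combined. There is therefore no replicate spread, no p-value is given for any comparison, and every ratio describes these 6 values only. Where a precision is given, it is a 95% interval for counting error alone (exact binomial, with fragment numbers read from the smallest steps of FPKM), and it says nothing of the spread between cultures.

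Germ cells of the worm mature along the gonad, from dividing stem cells through meiosis to oocytes that grow next to the somatic sheath. Growing oocytes stop transcribing before they are fertilised, so the embryo starts on a store of maternal mRNA, and much of the control in between is exerted by RNA-binding proteins. GLH-1 and GLD-1 act in the germ line from early on, RME-2, PUF-5, OMA-1 and OMA-2 act in the growing oocyte, and MEX-5, MEX-6, POS-1 and PIE-1 are stored for the first divisions of the embryo. Of the 10 proteins, 6 carry CCCH zinc fingers, which bind RNA in several of them: OMA-1, OMA-2, MEX-5, MEX-6, POS-1 and PIE-1.

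The RNAi targets and the depth of the columns bear on all that follows. hda-1 itself stood at 18.8 FPKM in L4440 but at 1207 in its own RNAi column, and atp-2 RNAi left this at 21.0 against 811. In the dve-1 RNAi columns it was at 24.0 and 25.11 FPKM. The hda-1 signal in its own columns was therefore far above that in L4440. The study treats hda-1 RNAi as a knockdown and shows qRT-PCR of endogenous hda-1 mRNA in wild-type worms given it. How much of the signal here was the worms' own hda-1 mRNA was not tested. These columns are called the hda-1-labelled groups, with no statement that hda-1 was reduced or raised in the worms. dve-1 was lower in the dve-1 RNAi columns, at 11.1 FPKM against 25.4 in L4440 and at 14.3 against 19.6 with atp-2 RNAi. atp-2 was lower in each of the 3 columns with atp-2 RNAi, at 423 to 598 FPKM against 861 to 1094 in the others. A level of 5 FPKM on a transcript of 1 kb stood for an estimated 81.7 to 101 fragments. The sum of FPKM ranged over the columns from 917209 to 980796, and the median gene was not level between them, so ratios of the 10 genes are also given less the ratio of the median gene.

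All 10 genes were detected in all 6 columns, and all 10 passed the filter of a mean of 1 FPKM that left 13337 genes. In 7 of them no column reached 10 FPKM, and in 2 of them, glh-1 and gld-1, every column did. The median over the 10 genes was 2.40 FPKM in L4440, 2.94 in the hda-1-labelled column and 4.90 with dve-1 RNAi. With atp-2 RNAi added, the same medians were 3.94, 4.49 and 5.86 FPKM. The lowest level of every gene was in L4440 or in the hda-1-labelled column, both without atp-2 RNAi.

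glh-1 encodes a DEAD-box RNA helicase of the Vasa family and is a constant part of the P granules, the RNA-rich bodies of germ cells. It lies on chromosome I, 6854478 to 6857536 on the plus strand (WBcel235, the same assembly as ce11), and was the most abundant of the 10. Its level was 56.3 FPKM in L4440, 76.8 in L4440 with atp-2 RNAi, 70.7 in the hda-1-labelled column, 103 in that with atp-2 RNAi, 74.5 with dve-1 RNAi and 90.7 with dve-1 and atp-2 RNAi. L4440 without atp-2 RNAi was the low value and the other columns were 1.26 to 1.82 times as high. glh-1 stood between percentiles 86.2 and 91.3 of all kept genes, and an estimated 2546 to 5082 fragments lay behind each value.

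gld-1 encodes a KH-domain protein that represses the translation of many maternal mRNAs during meiotic prophase. It lies on chromosome I, 7695681 to 7698222 on the plus strand. Its level was 16.5 FPKM in L4440, 27.1 in L4440 with atp-2 RNAi, 11.5 in the hda-1-labelled column, 20.3 in that with atp-2 RNAi, 27.1 with dve-1 RNAi and 36.4 with dve-1 and atp-2 RNAi. The column labelled hda-1 RNAi was lowest, and the highest column was 3.15 times as high (counting interval 2.84 to 3.51).

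The oocyte genes were at lower levels. rme-2 encodes the yolk receptor of the oocyte, a member of the LDL receptor family, and lies on chromosome IV, 5470026 to 5473174 on the plus strand. Its level was 2.61 FPKM in L4440, 3.98 in L4440 with atp-2 RNAi, 2.05 in the hda-1-labelled column, 3.65 in that with atp-2 RNAi, 4.27 with dve-1 RNAi and 6.20 with dve-1 and atp-2 RNAi. As for gld-1, the dve-1 columns were level with or above the others and the hda-1-labelled column was lowest. The counting interval of dve-1 RNAi against L4440 with atp-2 RNAi included 1 in both genes. In rme-2, so did that of L4440 against the hda-1-labelled column. The yolk proteins that RME-2 takes up are made by the intestine, and vit-2 and vit-6, which encode 2 of them, were at 6814 to 11651 and at 8881 to 12661 FPKM.

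puf-5 encodes a Pumilio-family RNA-binding protein of late oogenesis and lies on chromosome II, 8575541 to 8577787 on the plus strand. Its level was 1.53 FPKM in L4440, 1.89 in L4440 with atp-2 RNAi, 3.15 in the hda-1-labelled column, 3.60 in that with atp-2 RNAi, 2.75 with dve-1 RNAi and 3.83 with dve-1 and atp-2 RNAi. Here both L4440 columns were below all the others, which was the case for no other of the 10 genes.

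oma-1 and oma-2 encode closely related CCCH proteins that are jointly needed for the oocyte to mature. oma-1, on chromosome IV, 8888976 to 8890999 on the plus strand, was at 2.04 FPKM in L4440, 3.63 in L4440 with atp-2 RNAi, 1.69 in the hda-1-labelled column, 3.05 in that with atp-2 RNAi, 4.80 with dve-1 RNAi and 4.53 with dve-1 and atp-2 RNAi. oma-2, on chromosome V, 8029439 to 8031214 on the plus strand, was at 2.20 FPKM in L4440, 3.64 in L4440 with atp-2 RNAi, 2.60 in the hda-1-labelled column, 4.17 in that with atp-2 RNAi, 3.55 with dve-1 RNAi and 4.04 with dve-1 and atp-2 RNAi. The genes were at like levels in both L4440 columns, whereas oma-2 was the higher in both hda-1-labelled columns and oma-1 the higher in both dve-1 columns. The ratio of oma-1 to oma-2 ran from 0.651 to 1.35 over the 6 columns. No counting interval was computed for this ratio. The values rested on an estimated 54 to 165 fragments in oma-1 and 56 to 126 in oma-2, so small differences between the genes may be counting error.

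mex-5 and mex-6 encode closely related CCCH proteins that set the anterior side of the zygote apart from the posterior side. mex-5, on chromosome IV, 13353723 to 13356104 on the plus strand, was at 5.73 FPKM in L4440, 8.59 in L4440 with atp-2 RNAi, 5.21 in the hda-1-labelled column, 7.42 in that with atp-2 RNAi, 10.7 with dve-1 RNAi and 13.3 with dve-1 and atp-2 RNAi. mex-6, on chromosome II, 9524174 to 9526359 on the plus strand, was at 1.57 FPKM in L4440, 2.82 in L4440 with atp-2 RNAi, 0.959 in the hda-1-labelled column, 1.84 in that with atp-2 RNAi, 3.37 with dve-1 RNAi and 4.34 with dve-1 and atp-2 RNAi. The columns stood in the same order for both genes, and mex-5 was 3.05 to 5.44 times as high as mex-6. mex-6 had the widest range of the 10, its highest value being 4.53 times its lowest (counting interval 3.09 to 6.84). Its lowest value, the single one of the 60 below 1 FPKM, rested on an estimated 32 fragments.

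pos-1 encodes a CCCH protein that regulates maternal mRNAs in the posterior cells of the embryo and lies on chromosome V, 8414086 to 8415254 on the plus strand. Its level was 2.20 FPKM in L4440, 3.89 in L4440 with atp-2 RNAi, 2.74 in the hda-1-labelled column, 5.28 in that with atp-2 RNAi, 5.59 with dve-1 RNAi and 6.57 with dve-1 and atp-2 RNAi. pie-1 encodes a CCCH protein that keeps transcription off in the germ-line cells of the embryo and lies on chromosome III, 12426893 to 12429195 on the plus strand. Its level was 3.30 FPKM in L4440, 4.32 in L4440 with atp-2 RNAi, 4.15 in the hda-1-labelled column, 4.81 in that with atp-2 RNAi, 5.001 with dve-1 RNAi and 5.52 with dve-1 and atp-2 RNAi. The columns were in the same order for pos-1 and pie-1, over a range of 2.99 times in pos-1 and 1.67 times in pie-1, the narrowest of the 10. pie-1 is also the single gene of the 10 that overlaps another annotated gene. It shares 24 nt of exon with snr-6 on the opposite strand, which was at 31.5 to 57.7 FPKM, and since strandedness is not stated, reads from the shared stretch cannot be told apart.

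**Figure D1:**
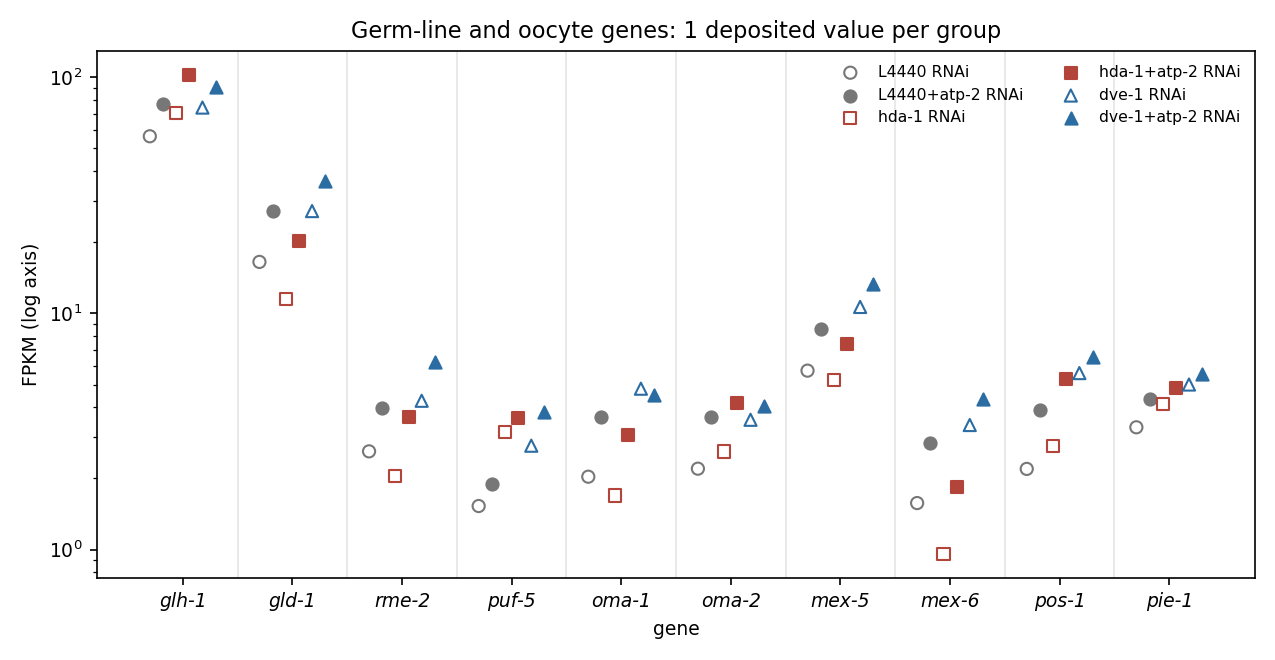
FPKM of the 10 genes (log axis) in each of the 6 groups, 1 deposited value per group with no error bar. Open symbols are without and filled symbols with atp-2 RNAi; circles are L4440, squares the hda-1-labelled groups and triangles dve-1 RNAi. Each filled symbol lies above its open partner, other than the triangles of oma-1 (4.53 against 4.80 FPKM).

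The order of the columns grouped the genes. gld-1, rme-2, mex-5 and mex-6 had the same order throughout: the hda-1-labelled column, then L4440, the same groups in that order with atp-2 RNAi, then dve-1 RNAi and dve-1 with atp-2 RNAi. oma-1 had this order but for the last 2 columns, which were exchanged. pos-1 and pie-1 differed from it in having L4440 below the hda-1-labelled column, without and with atp-2 RNAi. glh-1 and oma-2 shared another order, in which L4440 was lowest and the hda-1-labelled column with atp-2 RNAi was highest, and puf-5 had an order of its own. Most steps in these orders were small. Of 50 pairs of neighbouring columns, 32 had a counting interval of their ratio that included 1, among them all 5 pairs in each of oma-2, pos-1 and pie-1. In glh-1 and gld-1, with more fragments, 1 of 5 pairs did.

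The profile of a gene was taken as its log2(FPKM + 1) in the 6 columns less its own mean, and the distance between profiles as the root mean square of their differences. Of the 45 pairs among the 10 genes, gld-1 and mex-6 were closest (0.087), followed by rme-2 and mex-5 (0.093), glh-1 and oma-2 (0.107) and the related genes mex-5 and mex-6 (0.116). gld-1 and puf-5 were farthest apart (0.559). The 3 closest pairs thus joined genes of different roles, and could join very different levels, as with glh-1 at 56.3 FPKM and oma-2 at 2.20 FPKM in L4440.

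The first question was how the 10 genes stood with mitochondrial stress from atp-2 RNAi in each background. In L4440, all 10 were higher with atp-2 RNAi, against 66% of all kept genes that were higher by any amount. Their ratios of FPKM ran from 1.23 in puf-5 to 1.79 in mex-6 with a median of 1.58. On the scale of log2(FPKM + 1), which understates the ratios of genes at low level, the median was 0.52, or 0.41 above the median gene. gld-1 had the largest log2 ratio, 0.68, and puf-5 the smallest, 0.19. The counting interval of the ratio lay above 1 in 8 genes, the exceptions being puf-5 and pie-1. None reached the size called here, a ratio of 2 or more on FPKM + 1 with at least 5 FPKM in the higher column. Of all kept genes, 1.89% reached it in the higher direction and 0.652% in the lower. The share called higher was 1.14% for protein-coding genes with a mean of 1 to 10 FPKM. Only glh-1, gld-1 and mex-5 had 5 FPKM in the higher column here, so the rest of the 10 could not be called. puf-5, oma-1, oma-2 and mex-6 were below 5 FPKM in every column and could be called in no comparison. With no minimum level, still none of the 10 was called here. At 1.5-fold with the same minimum of 5 FPKM, gld-1 alone was past the limit, as were 5.41% of kept genes. pos-1 (0.61) and oma-1 (0.61) also had ratios past 1.5-fold but were below 5 FPKM.

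In the hda-1-labelled columns, the 10 genes were likewise all higher with atp-2 RNAi, against 60.3% of all kept genes. The ratios of FPKM ran from 1.14 in puf-5 to 1.93 in pos-1 with a median of 1.68, and the median log2 ratio was 0.53, or 0.47 above the median gene. gld-1 (0.76) and pos-1 (0.75) had the largest log2 ratios, and the counting interval included 1 in the same genes as in L4440, puf-5 and pie-1. None was called, against 0.742% of kept genes called higher and 0.645% called lower. Only glh-1, gld-1, mex-5 and pos-1 had 5 FPKM in the higher column, and with no minimum level none was called either. At 1.5-fold with the minimum, gld-1 and pos-1 were past the limit, against 2.7% of kept genes. rme-2 (0.61) and oma-1 (0.59) also had ratios past 1.5-fold but were below 5 FPKM.

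In the dve-1 RNAi columns, 9 of the 10 genes were higher with atp-2 RNAi, against 53.7% of all kept genes. The ratios of FPKM ran from 0.944 in oma-1 to 1.45 in rme-2 with a median of 1.23, and the median log2 ratio was 0.29, or 0.26 above the median gene. The largest log2 ratios were those of rme-2 (0.45) and gld-1 (0.41), and that of oma-1 was -0.07 (counting interval of its FPKM ratio 0.754 to 1.19). Counting intervals lay above 1 in 6 genes: glh-1, gld-1, rme-2, puf-5, mex-5 and mex-6. None was called, against 0.997% of kept genes called higher and 1.56% called lower. puf-5, oma-1, oma-2 and mex-6 were below 5 FPKM in both columns, and with no minimum level none was called either.

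These 3 comparisons share no column. The 9 genes other than oma-1 were above the median gene in all 3, a rule that 23.9% of all kept genes met, and 24.2% of protein-coding genes with a mean of 1 to 10 FPKM, where 8 of the 10 genes lie. The 3 role groups were close to each other. Median log2 ratios in L4440 were 0.56 for glh-1 and gld-1, 0.50 for the 4 oocyte genes and 0.54 for the 4 genes of the early embryo.

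**Figure D2:**
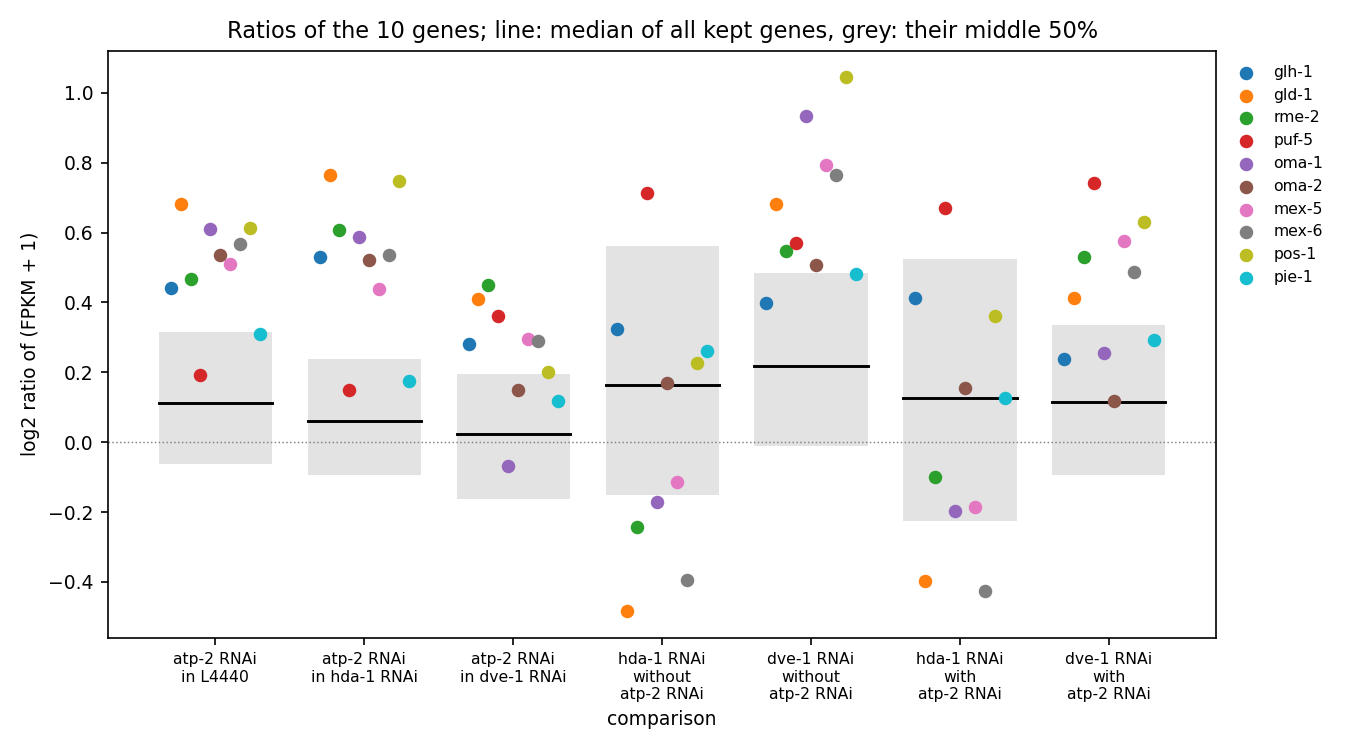
log2 ratios of FPKM + 1 for the 10 genes in the 7 comparisons, 1 point per gene. The black line is the median and the grey box the middle 50% of the 13337 kept genes. All 10 points are above the line for atp-2 RNAi in L4440 and in the hda-1-labelled column and for both dve-1 comparisons, 9 are above it for atp-2 RNAi in dve-1, and oma-2 is level with it for dve-1 RNAi with atp-2 RNAi. In both hda-1 comparisons 5 points are above 0 and 5 below.

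The second question was how the genes stood with dve-1 RNAi against L4440. Without atp-2 RNAi, all 10 were higher with dve-1 RNAi, against 73% of all kept genes, and the counting interval of the ratio lay above 1 in all 10. The ratios of FPKM ran from 1.32 in glh-1 to 2.55 in pos-1 with a median of 1.72. pos-1 was at 5.59 against 2.20 FPKM, a log2 ratio of 1.04 (counting interval of the FPKM ratio 1.76 to 3.77), and was the 1 gene called, against 7.08% of kept genes called higher and 2.23% called lower. It stood just past both limits of the call, and was not called under either scaling of the columns tried or with a pseudocount of 5 FPKM. rme-2, puf-5, oma-1, oma-2 and mex-6 were below 5 FPKM in both columns, and with no minimum level none of these was called. At 1.5-fold with at least 5 FPKM, pos-1, mex-5 and gld-1 were past the limit, against 12.4% of kept genes. oma-1 and mex-6 also had ratios past 1.5-fold but were below 5 FPKM. oma-1 followed pos-1 at 0.93, with mex-5 at 0.79, mex-6 at 0.76 and gld-1 at 0.68. The median was 0.63, or 0.41 above the median gene. By role, the early embryo genes had a median log2 ratio of 0.78, the oocyte genes of 0.56, and glh-1 and gld-1 of 0.54.

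With atp-2 RNAi in both groups, all 10 genes were again higher with dve-1 RNAi, against 64.7% of all kept genes. The ratios of FPKM ran from 1.11 in oma-2 to 2.03 in puf-5 with a median of 1.44, and the median log2 ratio was 0.45, or 0.33 above the median gene. puf-5 (0.74), pos-1 (0.63) and mex-5 (0.58) led, whereas oma-1, second without atp-2 RNAi, was at 0.26. The counting interval lay above 1 in 7 genes and included 1 in oma-1, oma-2 and pie-1. None was called, against 4.81% of kept genes called higher and 2.39% called lower. puf-5, oma-1, oma-2 and mex-6 were below 5 FPKM in both columns, and with no minimum level none was called either. At 1.5-fold with at least 5 FPKM, pos-1 was past the limit, against 8.52% of kept genes. puf-5 also had a ratio past 1.5-fold but was below 5 FPKM. All 10 genes were above the median gene in both dve-1 comparisons (oma-2 was level with it with atp-2 RNAi, and 9 were above it there with a pseudocount of 5 FPKM), as were 36.1% of all kept genes and 42.3% of protein-coding genes with a mean of 1 to 10 FPKM.

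The hda-1-labelled columns divided the 10 genes against L4440. Without atp-2 RNAi, 5 genes were higher and 5 lower, against 63.2% and 36% of all kept genes. gld-1 had a log2 ratio of -0.48, mex-6 of -0.39, rme-2 of -0.24, oma-1 of -0.17 and mex-5 of -0.11. puf-5 was highest at 0.71, from 1.53 to 3.15 FPKM, followed by glh-1 at 0.32, pie-1 at 0.26, pos-1 at 0.23 and oma-2 at 0.17. The median was 0.03, or -0.13 less the median gene. Counting intervals lay below 1 in gld-1 (FPKM ratio 0.698, interval 0.617 to 0.791) and mex-6, lay above 1 in glh-1 and puf-5 (2.06, interval 1.46 to 2.90), and included 1 in the other 6. None was called, against 8.77% of kept genes called higher and 3.25% called lower. Only glh-1, gld-1 and mex-5 had 5 FPKM in the higher column, and with no minimum level none was called either. puf-5 had a ratio past 1.5-fold but was below 5 FPKM.

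With atp-2 RNAi in both groups, the same 5 genes were lower and the same 5 higher in the hda-1-labelled column, against 40.1% and 59.1% of all kept genes. mex-6 was at -0.43, gld-1 at -0.40, oma-1 at -0.20, mex-5 at -0.19 and rme-2 at -0.10 on the log2 scale. puf-5 was at 0.67, glh-1 at 0.41, pos-1 at 0.36, oma-2 at 0.15 and pie-1 at 0.13. The counting intervals again lay below 1 in gld-1 and mex-6 and above 1 in glh-1 and puf-5. None was called, against 8.43% of kept genes called higher and 4.34% called lower. Only glh-1, gld-1, mex-5 and pos-1 had 5 FPKM in the higher column, and with no minimum level none was called either. puf-5 again had a ratio past 1.5-fold but was below 5 FPKM. The comparisons without and with atp-2 RNAi share no column. Of all kept genes, 29.5% were lower and 52.6% higher in both, so that most genes kept their direction. Of the pairs of related genes, mex-5 and mex-6 were both on the lower side, whereas oma-1 was on the lower and oma-2 on the higher side with all 4 counting intervals including 1.

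**Figure D3:**
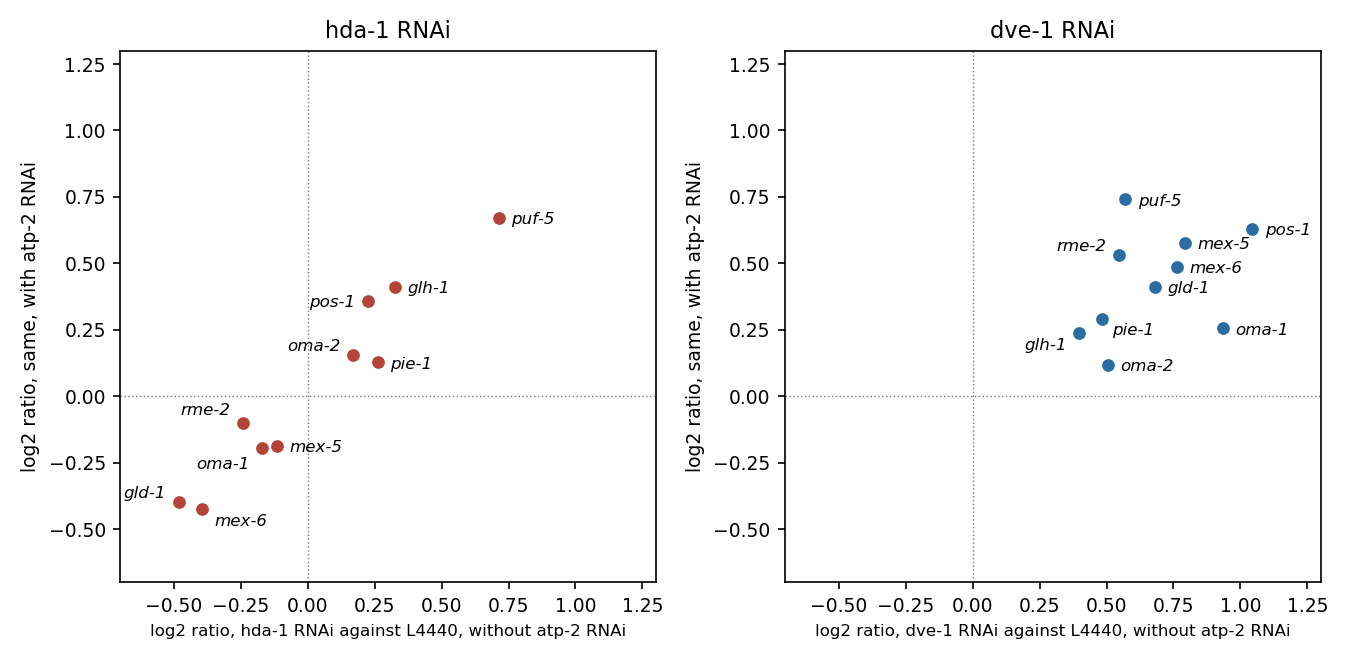
log2 ratio of FPKM + 1 against L4440 without (horizontal) and with (vertical) atp-2 RNAi, 1 point per gene, for the hda-1-labelled columns (left) and for dve-1 RNAi (right). On the left, gld-1, rme-2, oma-1, mex-5 and mex-6 lie below 0 on both axes and the other 5 genes above 0 on both; on the right all 10 lie above 0 on both axes.

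The dve-1 and hda-1 comparisons share the L4440 columns, so their ratios are set side by side only. Without atp-2 RNAi, gld-1 was at -0.48 for the hda-1 label and 0.68 for dve-1 RNAi, mex-6 at -0.39 and 0.76, and oma-1 at -0.17 and 0.93. puf-5 was at 0.71 and 0.57, and glh-1 at 0.32 and 0.40. Over the 10 genes, log2 ratios ranged from -0.48 to 0.71 for the hda-1 label and from 0.40 to 1.04 for dve-1 RNAi.

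The last comparison was that of the response to atp-2 RNAi between backgrounds, as the difference of log2 ratios less that in L4440. For the hda-1-labelled columns, differences ran from -0.13 in pie-1 to 0.14 in rme-2 with a median of -0.02, beside -0.04 over all kept genes. For dve-1 RNAi, 9 of 10 differences were below 0, as were 65.4% of all kept genes, and 8 of 10 were below that of the median gene, with a median of -0.24 beside -0.11 over all kept genes. oma-1 was at -0.68, pos-1 at -0.41 and oma-2 at -0.39, and puf-5 was the exception at 0.17. None reached a difference of 1 with at least 5 FPKM in a column, against 3.55% of kept genes for the hda-1 label and 3.91% for dve-1 RNAi. These differences have no test, since each group has 1 value, and both use the same L4440 columns.

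Other genes of the germ line were read from lists chosen with earlier results of these data known. The list of P granule and germ-line RNA regulators had 18 of 20 genes above the filter, with car-1 (76.1 FPKM in L4440), csr-1 (42.5) and cgh-1 (37.1) at the highest levels. With atp-2 RNAi, 16 of these 18 were higher in L4440, 17 in the hda-1-labelled columns and 16 with dve-1 RNAi, and all 18 were higher with dve-1 RNAi than in L4440, without and with atp-2 RNAi. cgh-1, which encodes a germ-line DEAD-box helicase, was at 37.1 FPKM in L4440, 56.2 with atp-2 RNAi and 58.0 with dve-1 RNAi. None of the 18 was called in any comparison. Against L4440, the hda-1-labelled columns had 11 of them higher and 7 lower without atp-2 RNAi, and 12 higher and 6 lower with it, at medians of -0.10 and 0.09 less the median gene.

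All 18 genes of the meiotic chromosome list were above the filter, and all 18 were higher with atp-2 RNAi in L4440 and higher with dve-1 RNAi than in L4440 without atp-2 RNAi. With atp-2 RNAi in both groups, 15 were higher with dve-1 RNAi and 3 lower, at a median 0.08 above the median gene. The hda-1-labelled column with atp-2 RNAi had 7 higher and 11 lower. Without atp-2 RNAi, 8 were higher and 10 lower in the hda-1-labelled column than in L4440. him-3, an axis protein gene, was called lower there, at 3.47 against 8.73 FPKM, whereas the recombinase gene rad-51 was at 7.60 against 8.22. him-8, which encodes the X chromosome pairing protein, stood apart from the rest of the list. It was at 10.9 FPKM in L4440, 23.1 in L4440 with atp-2 RNAi, 32.2 in the hda-1-labelled column, 20.9 in that with atp-2 RNAi, 81.04 with dve-1 RNAi and 16.8 with dve-1 and atp-2 RNAi. It was thus called lower with atp-2 RNAi in the dve-1 background, where 16 of the list's 18 genes were higher.

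The oocyte and egg list, with all 26 genes above the filter, had 23 genes higher with atp-2 RNAi in L4440, 23 in the hda-1-labelled columns and 21 with dve-1 RNAi. With dve-1 RNAi and no atp-2 RNAi, 25 of 26 were higher than in L4440. Among them was cpg-3, an eggshell proteoglycan gene, which was called at 6.99 against 2.57 FPKM. With atp-2 RNAi in both groups, 23 were higher with dve-1 RNAi and 3 lower. The hda-1-labelled columns had 14 of the 26 higher and 12 lower without atp-2 RNAi, and 12 higher and 14 lower with it. mex-3, which encodes a KH-domain RNA-binding protein of the early embryo, was called higher there with atp-2 RNAi, at 19.4 against 9.02 FPKM. The eggshell genes perm-2 and perm-4 were among the 3 genes of the list that were lower with atp-2 RNAi in L4440, at 2974 and 2699 FPKM. Their levels were far above those of the 10 genes, 3167 and 3071 FPKM in L4440 and 2134 and 1553 FPKM in the hda-1-labelled column. skn-1, the gene of a maternal transcription factor that is also expressed in the intestine, was at 88.5 and 64.8 FPKM.

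The cell division list, with all 20 genes above the filter, separated from the 10 genes in the hda-1 comparisons. There, 19 of its 20 genes were higher than in L4440 without atp-2 RNAi and 19 with it, at medians 0.26 and 0.28 above the median gene, where the 10 genes were at -0.13 and -0.11. pcn-1, the gene of the replication clamp PCNA, was at 13.1 FPKM in L4440 against 22.5 in the hda-1-labelled column, the kinesin gene klp-7 at 13.9 against 18.1 and the topoisomerase gene top-2 at 11.5 against 17.1. With atp-2 RNAi, all 20 were higher in L4440 and in the hda-1-labelled columns, and 19 with dve-1 RNAi. Against L4440, dve-1 RNAi had all 20 higher without atp-2 RNAi and 19 with it. The medians of the list were 0.14 and 0.10 above the median gene there, beside 0.41 and 0.33 for the 10 genes. Dividing cells outside the germ line can also express the genes of this list.

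Other cells and stages in a whole worm were checked in the same way. None of 10 genes of the zygotic embryo passed the filter, 5 of them were listed at 0 in all columns, the highest, med-2, sdz-38 and end-3, reached at most 0.558 FPKM, and the 10 summed to 0.148 to 1.05 FPKM per column, so these markers of embryos past the start of zygotic transcription were near 0 in each column. The 8 somatic gonad genes summed to 218 to 260 FPKM and the median of the 7 kept was -0.06 to 0.10 less the median gene over the 7 comparisons, although inx-8 and inx-9 were called in opposite directions in both hda-1 comparisons. fos-1, the other of the 3 most abundant, was at 26.9 to 37.3 FPKM. The 13 markers of intestine, muscle, nerve and epidermis had medians from -0.13 to 0.39 less the median gene over the comparisons (11 kept), and their sum, dominated by vit-2 and vit-6, ran from 17420 to 25490 FPKM. The next most abundant, the muscle myosin gene unc-54, was at 668 to 956 FPKM. Of these markers, 4 were called in a comparison. unc-119, a gene of the nervous system, was called higher in both dve-1 comparisons, at 30.8 against 11.8 FPKM without and 29.3 against 11.9 with atp-2 RNAi. elt-2, which encodes a GATA factor of the intestine, was called higher with dve-1 RNAi without atp-2 RNAi, at 16.7 against 7.61 FPKM, a log2 ratio equal to that of pos-1 (1.04). In the hda-1-labelled column with atp-2 RNAi, the epidermal factor gene lin-26 was called higher, at 12.4 against 5.43 FPKM, and the intestinal esterase gene ges-1 lower, at 62.0 against 157 FPKM. The part of these markers in the results of the 10 genes was not tested.

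The 29 genes of the sperm list summed to 238 FPKM in L4440 and 307 with atp-2 RNAi, to 19.5 and 21.1 in the hda-1-labelled columns, and to 968 and 777 in the dve-1 columns. All 29 were above 0 in the L4440 and dve-1 columns, and 17 and 18 of them in the hda-1-labelled columns. Of the 17 msp genes on the list, which encode the major sperm protein, 8 were listed at 0 in both hda-1-labelled columns. The most abundant and those with the largest called ratios were msp-31, msp-36, msp-40, msp-76 and msp-81, at 17.3 to 29.6 FPKM in L4440, at 0 to 2.91 in the hda-1-labelled column and at 64.7 to 111 with dve-1 RNAi. They are near-identical copies, so that the values of single copies are uncertain. Of the 10 genes, all were higher with dve-1 RNAi than in L4440, by FPKM ratios of 1.32 to 2.55 without and 1.11 to 2.03 with atp-2 RNAi, whereas in the hda-1-labelled columns 5 were lower and 5 higher. Any part of the sperm list in these results was not tested.

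**Figure D4:**
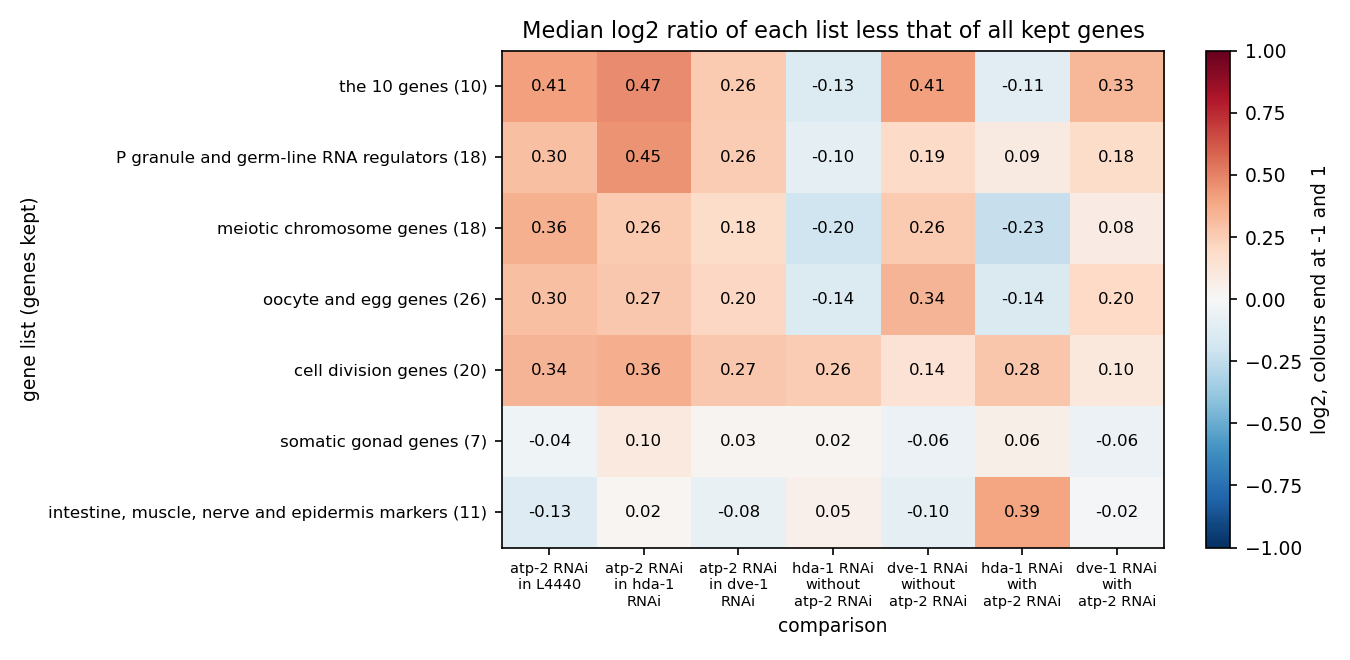
Median log2 ratio of the gene lists shown less that of all kept genes (numbers in the cells and colour), for the 7 comparisons, with genes kept by the filter in parentheses. The zygotic embryo list, with no gene kept, and the sperm list are not shown. Without and with atp-2 RNAi, the sperm list was at -3.21 and -3.57 in the hda-1 comparisons and at 1.64 and 1.15 in the dve-1 comparisons. The 10 genes and the P granule, meiotic, oocyte and cell division lists are above 0 in all atp-2 and dve-1 comparisons. In the hda-1 comparisons the 10 genes are at -0.13 and -0.11 and the cell division list at 0.26 and 0.28.

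Of 12537 protein-coding genes outside the 10 with at least 300 nt of exon, the 10 nearest to the median profile of the 10 genes were, in order, rga-3, cey-2, C16D2.1, tpxl-1, W05F2.3, R148.4, gfat-2, F07H5.10, cgh-1 and clec-91, at root mean square distances of 0.049 to 0.088 over the 6 columns. cey-2 was at 43.1 FPKM in L4440, 60.8 in L4440 with atp-2 RNAi, 43.0 in the hda-1-labelled column, 59.5 in that with atp-2 RNAi, 65.1 with dve-1 RNAi and 79.3 with dve-1 and atp-2 RNAi. It stood at 10 or more times the level of most of the 10 genes with the same order of its columns as gld-1. rga-3 was at 2.07 FPKM in L4440, 3.36 in L4440 with atp-2 RNAi, 1.92 in the hda-1-labelled column, 3.15 in that with atp-2 RNAi, 3.46 with dve-1 RNAi and 4.60 with dve-1 and atp-2 RNAi. Among the 200 nearest of the 12537 genes were 10 of the 18 meiotic genes, 8 of the 26 oocyte and egg genes, 6 of the 18 P granule genes and 3 of the 20 cell division genes. When likeness was measured by Pearson's r over the 6 columns, which takes no account of the size of the differences, 2 of the 10 names, cey-2 and rga-3, were shared.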

How the data were processed

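Total RNA from whole worms was sequenced as mRNA on an Illumina HiSeq. Per the submitters' processing notes and the study's methods, the authors mapped reads to ce11 with TopHat2 2.1.1, retained those that mapped uniquely and ran Cufflinks. The deposited table gives FPKM, 1 per gene and group with the libraries of a group combined; scaling between libraries and strandedness are not stated. Keeping unique reads can lower the values of near-identical gene copies. The study's text on this sequencing does not name the strain, which is taken from the labels.

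FPKM was used as deposited. Positions came from the Ensembl annotation, release 115, by gene identifier (45990 of 46245 genes matched). Genes with a mean of at least 1 FPKM over the 6 columns were kept (13337). Ratios are log2(FPKM + 1), and a gene was called at 2-fold with at least 5 FPKM in the higher column. With 1 value per group there was no test. Fragment numbers were read from the smallest steps of FPKM in genes with 1000 nt of exon or somewhat more, and intervals (exact binomial, 95%) cover counting error only. The members and lists were chosen with earlier results of these data known. Named genes were the 10 genes, the RNAi targets, from each list the called genes (up to 4, by size of the ratio) and the 3 highest by mean FPKM, and the 10 nearest profiles. Alternatives were pseudocounts of 0.1 and 5 FPKM, median-of-ratios and upper-quartile scaling, no filter on low values, no minimum level, a 1.5-fold call and Pearson's r for profiles. Python 3.11.15, pandas 2.3.3, numpy 2.4.6 and scipy 1.17.1 were used.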

Additional observations from a re-analysis of the deposited data

Results flagged for a closer look

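oma-1 was the 1 gene of the 10 whose ratio for atp-2 RNAi had opposite directions in different backgrounds. Its log2 ratio was 0.61 in L4440 and 0.59 in the hda-1-labelled columns, and -0.068 with dve-1 RNAi. With 1 value per group, the difference between backgrounds was not tested. The counting interval of the FPKM ratio with dve-1 RNAi, 0.754 to 1.19, included 1.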

How the results depend on the processing

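Across 70 ratios (10 genes in 7 comparisons), none changed sign under any of 5 alternatives (pseudocounts of 0.1 and 5 FPKM, median-of-ratios scaling, upper-quartile scaling, no filter on low values). The median of the 10 genes for the hda-1 label did change sign. Without atp-2 RNAi it went from 0.03 to -0.12 with median-of-ratios scaling and to -0.08 with upper-quartile scaling. With atp-2 RNAi it went from 0.01 to -0.10 and -0.02. The number of the 10 genes called for dve-1 RNAi in the absence of atp-2 RNAi was 1 as reported, 0 with a pseudocount of 5 FPKM, 0 with median-of-ratios scaling and 0 with upper-quartile scaling. With a 1.5-fold call and the same minimum of 5 FPKM it was 3 (12.4% of all kept genes). The other counts were then 1 for atp-2 RNAi in L4440 (5.41%), 2 for atp-2 RNAi in the hda-1-labelled columns (2.7%) and 1 for dve-1 RNAi with atp-2 RNAi (8.52%), all higher. Median-of-ratios scaling moved the median of all kept genes from 0.22 to 0.02 for dve-1 RNAi with no atp-2 RNAi, from 0.16 to 0.00 for the hda-1 label without it and from 0.11 to -0.02 for atp-2 RNAi in L4440, and moved 9 of the 70 ratios, all of glh-1 or gld-1, by more than their counting interval. Calls over all kept genes for dve-1 RNAi with no atp-2 RNAi went from 944 higher and 298 lower to 777 and 462, and for atp-2 RNAi in L4440 from 252 and 87 to 200 and 128. Over genes above the median gene, a pseudocount of 5 FPKM gave 3 and 4 of the 10 in the hda-1 comparisons in place of 5 and 5, and 9 in place of 10 for dve-1 RNAi with atp-2 RNAi. The share of protein-coding genes at 1 to 10 FPKM was added after seeing the data. No paired analysis was possible because the deposited table holds 1 value per group and no replicate, and for the same reason no library could be left out. At 1 FPKM on 1 kb, a value rested on an estimated 16.3 to 20.2 fragments, which limits mex-6, puf-5, oma-1, oma-2 and pos-1 most.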

Other observations

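The neighbouring innexin genes inx-8 and inx-9, which encode gap junction subunits of the gonadal sheath, were both on the list of somatic gonad genes and were called in opposite directions in the hda-1-labelled columns. inx-8 was at 118.6 FPKM in L4440, 124 in L4440 with atp-2 RNAi, 14.1 in the hda-1-labelled column, 16.4 in that with atp-2 RNAi, and 150.4 and 152 in the dve-1 columns. inx-9 was at 27.9 and 33.1 FPKM in the L4440 columns, 143 and 146 in the hda-1-labelled columns, and 33.2 and 34.5 in the dve-1 columns. The sum of both genes was 146, 157, 157 and 162 FPKM in L4440, L4440 with atp-2 RNAi and the hda-1-labelled columns without and with atp-2 RNAi. The genes lie 718 nt apart on chromosome IV and share no annotated exon.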
